A study of Mus musculus with 16 samples.

Results

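The expression of 33 genes of the erythroid programme and of haem synthesis was followed in RNA from mouse LSK cells, the lineage-negative, Sca1-positive, Kit-positive marrow cells among which blood stem cells and the earliest progenitors are found. The genes were chosen by a fixed list of symbols, and all 33 were found among the 30141 gene rows of the deposited count tables. They comprise 4 adult haemoglobin genes, 5 transcription factors, 2 receptors, 2 carbonic anhydrases, 9 proteins of the red cell membrane and surface, 8 haem synthesis enzymes, and 3 genes that move haem precursors or reduce biliverdin. All 33 passed the filter on low counts, so no gene of the list is missing from the tests. The highest levels of 30 of the 33 genes were found in a pair of libraries of the same group, R882H with NaCl.

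Red cells form from stem cells through a series of progenitors, in which GATA1 and KLF1 switch on globin, haem synthesis and red cell membrane genes while the stem cell programme is shut down. Erythropoietin, acting through its receptor EPOR, keeps the progenitors alive, and the transferrin receptor brings in the iron that ferrochelatase inserts into protoporphyrin to make haem. Early progenitors carry low levels of some of these transcripts, and the globin and band 3 transcripts mark late erythroblasts, which the depletion of lineage-positive cells is meant to remove. In bulk RNA, a change in the number of cells of a type and a change in RNA per cell cannot be told apart.

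The study crossed genotype with treatment. R882H cells carry the mouse Dnmt3a gene and a human DNMT3A allele with the R882H change, a hotspot of clonal haematopoiesis and acute myeloid leukaemia, knocked in behind a Lox-Stop-Lox cassette that Mx1-Cre removes. Mx1-Cre is switched on by poly(I:C) and acts in blood cells and in other interferon-responsive tissues. Donors of both genotypes received poly(I:C) at 15 µg per g, the controls lacking Cre, and which animals had the other schedule that the labels mention is not stated. Marrow taken 4 weeks later was mixed 1:1 with WT competitor marrow carrying CD45.1 and transplanted into CD45.1 recipients. From 2 weeks after the transplant, recipients were given azacitidine, a cytidine analogue that traps DNA methyltransferases, at 2.5 mg per kg, or 0.9% NaCl (the vehicle), for 2 weeks (5 days on, 2 days off, 5 days on). Whether the sort kept competitor cells out, and how old the mice were, is not stated in the labels. WT mice gave 4 libraries under NaCl and 3 under azacitidine, and R882H mice gave 4 under NaCl and 5 under azacitidine. The labels do not say that each library came from a separate animal, so each p-value measures the spread between libraries.

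Total counts ran from 35860445 to 56012766 per library, and repeat families took 2.97 to 10.1% of them. Transcripts of the human allele were not analysed here, so the genotype labels were not checked against it. Libraries numbered 1 and 2 stood apart from the rest on the leading principal component in WT with NaCl, WT with azacitidine and R882H under NaCl, but not in R882H under azacitidine. What the numbers mark is not stated. Within R882H with NaCl, all 4 libraries of the group are labelled alike, yet libraries 1 and 2 differed from libraries 3 and 4 in most of the 33 genes: 26 stood higher in both than in either of the others, against 27.6% of all tested genes. The same count was 20 in WT with NaCl (30.6% of tested genes), 17 in WT with azacitidine (28.8%), where the comparison is with library 3 alone, and 1 in R882H with azacitidine (8.47%).

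R882H with NaCl library 2 held the highest level of 24 of the 33 genes, against 18% of all tested genes, and library 1 of that group held the highest level of 6 more, against 12.4%. Library 2 was highest for membrane, regulator and enzyme genes alike. Compared with the median of the other 15 libraries, beta spectrin (Sptb) was 59.7 times higher there, the Rh antigen gene Rhd 34.7 times, Ermap 22.7 times, Car1 19.00 times, Klf1 13.9 times and Epor 8.34 times. Library 1 instead held the highest levels of the 4 haemoglobin genes, Slc4a1 and Alas2. Its ratio to the median of the others was 19.2 for Hba-a1, 14.99 for Hbb-bs and 60.96 for Slc4a1. The genes that peaked in neither library were Nfe2 and Alas1, highest in WT with azacitidine library 2, and Ppox, highest in R882H with azacitidine library 3.

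**Figure D1:**
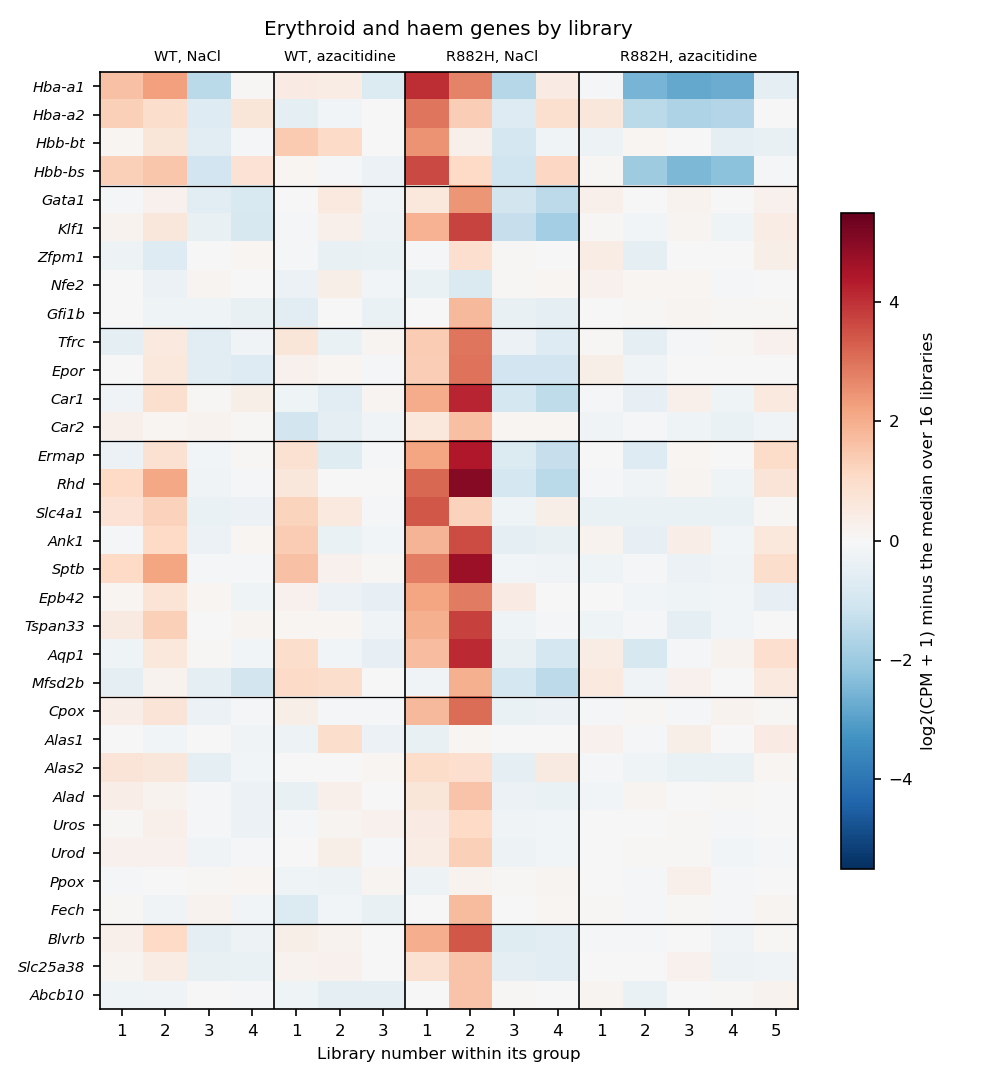
Level of the 33 genes (rows, grouped by role) in the 16 libraries (columns, numbered within their group), as log2(CPM + 1) minus the median of the gene over all libraries. Columns 1 and 2 of R882H with NaCl are red in most rows, with library 2 the highest of all 16 for 24 genes and library 1 for 6. In R882H with azacitidine libraries 2, 3 and 4 the rows of Hba-a1, Hba-a2 and Hbb-bs are blue, while Hbb-bt stays near its median.

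Markers in some of the lists fixed for cell types moved with these libraries too, but not in all lists. The neutrophil markers summed to at most 149 CPM in R882H with NaCl and 641 in R882H with azacitidine. The B cell markers summed to at most 102 CPM in R882H with NaCl and 105 in R882H with azacitidine. A set of 4 further erythroid markers (Rhag, Trim10, Hemgn and Kel) summed to 183 CPM in R882H with NaCl library 1 and 582 in library 2, and to 60.03 to 96.6 in the other 14 libraries. Over groups that sum ranged from 64.04 to 96.6 in WT with NaCl, 65.6 to 70.9 in WT with azacitidine, 60.03 to 582 in R882H with NaCl and 74.0 to 94.7 in R882H with azacitidine. The sorting markers were present in all libraries, Kit at 409.7 to 1226 CPM and Ly6a, the gene of Sca1, at 30.6 to 275. The 10 LSK markers summed to 1656 CPM in library 2, the lowest of all 16, to 2450 in library 1, and to 2513 to 4752 in the others. Among the T cell markers, Cd3d and Cd3e stood highest in library 1, at 22.3 and 24.2 CPM. They stood at 2.41 and 3.00 in library 2 and at most 0.897 and 0.695 elsewhere. Cd8a had no counts in any library of R882H with azacitidine. In azacitidine against NaCl in R882H, 7 of the 9 tested T cell markers had a log2 change below 0 and 2 above. The summed T cell list is dominated by Lat and Lck and ranged from 103 to 395 CPM in R882H with NaCl, 204 to 242 in WT with NaCl, 120 to 210 in WT with azacitidine and 177 to 254 in R882H with azacitidine. Mitochondrially encoded transcripts, which can track RNA quality, summed to 10527 CPM in library 1 and 6050 in library 2, against 2256 and 2671 in libraries 4 and 3 of that group, 2849 to 5400 in WT with NaCl, 3677 to 5803 in WT with azacitidine and 2372 to 3145 in R882H with azacitidine. A list of 30 cytosolic ribosomal protein genes summed to 25843 and 25299 CPM in libraries 1 and 2, against 11670 and 11532 in libraries 3 and 4 and 12487 to 25170 in the other groups. The part of these features in the results below was not tested. The comparisons that rest on the pair of libraries are given with and without them. Leaving the pair out of R882H keeps libraries 1 and 2 of WT, so comparisons with WT are then unequal in library number.

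The promoters of the 33 genes were searched for AGATAA, which GATA1 is known to bind, and CCNCNCCC, of the kind KLF1 is known to bind. Other forms, such as the GATA sequence TGATAA, were not searched, so the counts below leave them out. RefSeq windows of 250 bases before the start (GRCm38.p6) were matched for 27 of the 33 genes, 32 windows in all. Windows of the same gene can overlap, as for Alad, so a match can count in both. The GATA sequence AGATAA, on either strand, was found in 5 of the 32 windows (Alas2, Epb42, Epor, Hbb-bs and Rhd) and in 9.99% of 32851 windows of all genes. The CACCC-type sequence CCNCNCCC, whose matches may overlap each other, was found in 20 of the 32 windows, against 45.9% of all, and both were found in 3, against 2.78%. The sequences below run 5′ to 3′ on the strand of the gene, with matches to either sequence in capitals, and none of them overlaps an annotated GENCODE exon. They show a gene with both (Epor), with AGATAA alone (Rhd), with CCNCNCCC alone (Aqp1), and, as a contrast, a haem enzyme with neither, whose level did not peak with the others (Ppox).
Epor (chr9:21963577-21963826, minus strand): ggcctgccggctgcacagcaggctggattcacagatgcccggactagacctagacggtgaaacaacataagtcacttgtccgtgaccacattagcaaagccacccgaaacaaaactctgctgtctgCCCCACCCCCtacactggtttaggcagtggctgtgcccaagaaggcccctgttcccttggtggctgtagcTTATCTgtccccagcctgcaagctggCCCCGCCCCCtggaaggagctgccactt
Rhd (chr4:134864286-134864535, plus strand): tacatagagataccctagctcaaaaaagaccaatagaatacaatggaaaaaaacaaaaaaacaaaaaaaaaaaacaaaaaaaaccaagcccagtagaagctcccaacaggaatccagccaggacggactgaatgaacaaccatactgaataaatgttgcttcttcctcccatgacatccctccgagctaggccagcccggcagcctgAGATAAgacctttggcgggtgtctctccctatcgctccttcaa
Aqp1 (chr6:55336049-55336298, plus strand): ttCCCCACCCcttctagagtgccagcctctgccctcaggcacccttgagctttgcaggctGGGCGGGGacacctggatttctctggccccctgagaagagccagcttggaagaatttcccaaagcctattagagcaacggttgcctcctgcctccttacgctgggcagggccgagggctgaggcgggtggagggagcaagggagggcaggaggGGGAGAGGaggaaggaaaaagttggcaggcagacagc
Ppox (chr1:171281187-171281436, minus strand): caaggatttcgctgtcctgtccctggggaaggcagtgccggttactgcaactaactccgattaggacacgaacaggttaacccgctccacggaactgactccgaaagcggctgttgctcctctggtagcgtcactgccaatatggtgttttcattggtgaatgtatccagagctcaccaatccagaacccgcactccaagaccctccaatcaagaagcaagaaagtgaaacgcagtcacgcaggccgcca
Most genes without either sequence did peak in R882H with NaCl. The windows of Klf1, Cpox, Abcb10, Ermap and Urod, which peaked in library 2, held neither AGATAA nor CCNCNCCC. Nor did those of Hba-a1 and Hba-a2, which peaked in library 1, so Ppox was the exception among these genes. The window of Car1 was not matched. The Klf1, Cpox and Ermap windows do hold TTATCA, which is TGATAA on the other strand, and those of Hba-a1 and Hba-a2 hold TGATAA itself. Conversely, both windows of Alas1, which peaked in neither library, held CCNCNCCC, but 235 and 250 of their 250 bases lie in annotated exons. A match is a run of letters and does not show that a factor binds there.

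Levels were first compared between genes per unit length, in FPKM, in WT with NaCl. The carbonic anhydrase Car2 stood highest, with a median of 621 FPKM (579 to 681), followed by Car1 at 214 (160.1 to 335) and the transcription factor Nfe2 at 207 (161 to 238). Car1 and Nfe2 overlapped in range and were not ordered beyond their spread, whereas all 4 values of Car2 lay above both. Next came the haem enzyme Alad, at 79.6 FPKM (62.01 to 98.3), whose range overlapped neither Nfe2 above nor Gfi1b below. Gfi1b, Urod, Zfpm1, Klf1 and Hba-a1 followed with medians from 47.9 down to 29.2, and their ranges overlapped. From Ppox to Ermap the medians of 19 genes fell between 27.1 and 4.05 FPKM, with neighbours overlapping. A gap separated these from 5 genes whose medians were below 1 FPKM: Alas2 (0.427), Epb42 (0.254), Ank1 (0.1602), Sptb (0.153) and Slc4a1 (0.122). Haemoglobin transcripts were rare for genes that fill late erythroblasts: the 4 genes together gave 12.1 to 98.6 CPM (here unscaled, per total gene counts) in WT with NaCl, 23.4 to 52.9 in WT with azacitidine, 11.2 to 374 in R882H with NaCl and 7.78 to 28.6 in R882H with azacitidine.

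**Figure D2:**
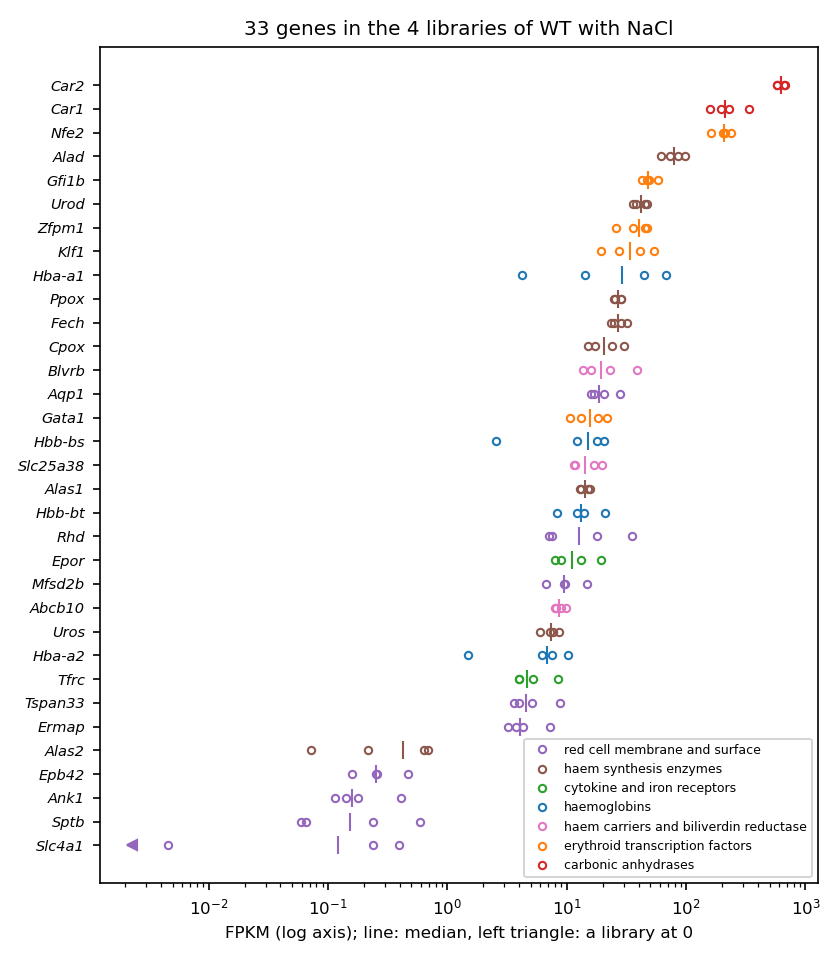
FPKM (log axis) of the 33 genes in the 4 libraries of WT with NaCl, ordered by median (vertical line) and coloured by role. Car2 leads at a median of 621, and Slc4a1 is last at 0.122, with 1 library at 0 drawn as a triangle.

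Azacitidine was then compared with NaCl in R882H cells. Of the 33 genes, 31 had a fitted log2 change below 0 and 2 (Nfe2 and Alas1) above, with a median of -1.59 against -0.04 over all genes tested; 55.7% of all genes lay below 0 and 44.3% above. None of the 33 passed an adjusted p of 0.05 in edgeR, and 0.00545% of all tested genes, a single gene, did. At an unadjusted p under 0.05, 22 were lower and 0 higher, against 4.45% and 2.24% of all genes. DESeq2 called 4 of the 33 (Epb42, Tspan33, Hba-a1 and Sptb) among 97 genes, and limma-voom called 0. The median was -0.83 with limma-voom. The values of the NaCl and azacitidine groups did not overlap for 2 of the 33, Epb42 and Car2, both lower, against 0.485% of all genes lower and 1.09% higher. This comparison rests on the pair of NaCl libraries that stood apart. Without library 2 of R882H with NaCl alone, 26 of the 33 lay below 0 and the median was -0.50. Without libraries 1 and 2 of R882H with NaCl, 12 of the 33 lay below 0 and 21 above, the median was 0.35, and 9 were higher and 0 lower at an unadjusted p under 0.05, against 2.1% of genes higher and 3.31% lower.

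Values in each library follow by role, in CPM, gene counts scaled to a common library size by TMM, and in the order of the library numbers, 1 to 4 for the NaCl groups, 1 to 3 for WT with azacitidine and 1 to 5 for R882H with azacitidine. CPM compares libraries for a given gene, not genes with each other. Those of Hbb-bt, Gata1, Rhd, Slc4a1 and Mfsd2b were added after their values had been seen.

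The 2 receptors bring in the survival signal and the iron of the erythroid programme. Epor (ENSMUSG00000006235, chr9:21958897-21963506, minus strand) stood at 27.4, 41.7, 18.3 and 16.7 CPM in WT with NaCl and at 73.4, 232, 12.9 and 12.8 in R882H with NaCl. Epor under azacitidine stood at 33.5, 30.2 and 25.7 in WT and at 34.7, 24.3, 28.2, 27.7 and 28.3 in R882H. The R882H NaCl libraries thus held both the highest pair and the lowest pair of the 16, and the azacitidine libraries lay between them. Tfrc (ENSMUSG00000022797, chr16:32608920-32632794, plus strand), the transferrin receptor, stood at 26.01, 56.6, 25.2 and 33.7 CPM in WT with NaCl and at 103, 305, 30.4 and 23.3 in R882H with NaCl. Tfrc under azacitidine was 61.7, 29.98 and 42.9 in WT and 40.4, 27.01, 37.5, 40.00 and 45.8 in R882H. Libraries 1 and 2 of R882H with NaCl were again the highest, whereas library 4 was the lowest of the 16 and library 3 lay within the range of the other groups. In the difference between the azacitidine responses of the genotypes, Tfrc had a log2 value of -1.94 (SE 0.83, adjusted p = 0.763), and in R882H against WT under NaCl 1.70 (SE 0.59, adjusted p = 0.797). Both changed sign without libraries 1 and 2 of R882H with NaCl, to 0.16 and -0.39.

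Among the transcription factors, Klf1 and Gata1 followed the same order as Epor, whereas Nfe2 did not peak with them. Klf1 (ENSMUSG00000054191, chr8:84901928-84905291, plus strand), which activates the adult beta-globin genes, stood at 65.3, 89.1, 42.7 and 30.7 CPM in WT with NaCl and at 217, 777, 23.1 and 14.9 in R882H with NaCl. Klf1 under azacitidine stood at 55.97, 70.5 and 47.9 in WT and 59.6, 51.2, 64.3, 49.1 and 76.5 in R882H. Library 2 of R882H with NaCl exceeded all others and libraries 3 and 4 were the lowest of the 16, so that the groups overlapped. Gata1 (ENSMUSG00000031162, chrX:7959260-7978071, minus strand), the lineage's central factor, stood at 46.2, 57.3, 32.6 and 27.1 CPM in WT with NaCl and at 72.97, 271, 23.95 and 17.4 in R882H with NaCl. Gata1 under azacitidine stood at 48.9, 71.3 and 42.2 in WT and 60.6, 48.7, 55.5, 49.2 and 57.4 in R882H. All 5 R882H azacitidine values exceeded libraries 3 and 4 of R882H with NaCl and lay below libraries 1 and 2. Gfi1b (ENSMUSG00000026815, chr2:28609450-28621982, minus strand), a repressor needed for red cells and platelets, stood at 112, 91.9, 92.3 and 81.04 CPM in WT with NaCl and at 112, 381, 81.4 and 77.7 in R882H with NaCl. Gfi1b under azacitidine stood at 72.8, 109.9 and 83.7 in WT and 108, 114, 120.2, 113 and 112 in R882H. Outside library 2 of R882H with NaCl, Gfi1b kept within 72.8 to 120.2 CPM. Nfe2, a factor shared with megakaryocytes, ranged from 379 to 807 CPM and was lowest, not highest, in R882H with NaCl library 2. Zfpm1, the GATA1 cofactor FOG1, ranged from 97.5 to 306 and was highest in that library. Klf1 had a log2 change of 2.18 (SE 0.83, adjusted p = 0.797) in R882H against WT under NaCl, and of -1.58 without libraries 1 and 2 of R882H with NaCl.

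The haemoglobin genes had another profile, with the peak in library 1 of R882H with NaCl and, for all but Hbb-bt, the lowest value in R882H with azacitidine library 3. Hba-a1 (ENSMUSG00000069919, chr11:32283511-32284465, plus strand), an alpha chain gene, stood at 37.5, 59.6, 3.52 and 12.1 CPM in WT with NaCl and at 211, 82.1, 3.21 and 16.2 in R882H with NaCl. Hba-a1 under azacitidine stood at 15.9, 15.4 and 6.44 in WT and at 10.95, 1.15, 0.800, 0.877 and 8.00 in R882H. Libraries 2, 3 and 4 of R882H with azacitidine were the lowest of all 16, while libraries 1 and 5 lay within the range of the NaCl groups. In R882H cells the log2 change with azacitidine was -4.16 (SE 1.11, adjusted p = 0.413). Hbb-bs (ENSMUSG00000052305, chr7:103826534-103828096, minus strand), a beta chain gene, stood at 14.5, 17.01, 2.00 and 9.74 CPM in WT with NaCl and at 75.4, 12.4, 1.89 and 12.9 in R882H with NaCl. Hbb-bs under azacitidine stood at 5.63, 5.03 and 3.95 in WT and at 5.41, 0.622, 0.118, 0.321 and 4.86 in R882H. The same 3 azacitidine libraries were the lowest, and the log2 change in R882H was -3.50 (SE 1.04, adjusted p = 0.415). Without libraries 1 and 2 of R882H with NaCl the values kept their sign but shrank, to -1.16 for Hba-a1, -1.19 for Hba-a2 and -1.71 for Hbb-bs. Without library 1 alone they were -2.95 for Hba-a1 and -1.99 for Hbb-bs. Hba-a2 ranged from 0.0235 to 24.6 CPM and was highest and lowest in the same libraries as Hba-a1. The alpha genes are near-identical copies, as are the beta genes, and how reads that fit both copies were counted is not given in the sources used here, so the split within each pair is uncertain.

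Hbb-bt, the other adult beta chain gene (ENSMUSG00000073940, chr7:103812524-103813996, minus strand), did not follow Hbb-bs. It stood at 10.4, 15.97, 5.92 and 9.01 CPM in WT with NaCl and at 58.2, 12.1, 4.55 and 8.41 in R882H with NaCl. Hbb-bt under azacitidine was 28.4, 21.5 and 9.98 in WT and 7.73, 10.5, 9.41, 6.70 and 6.98 in R882H. Where Hbb-bs was lowest, in R882H with azacitidine libraries 2, 3 and 4, Hbb-bt kept a level like that of the other libraries. Its share of the counts of the 2 beta genes was 94.4% in library 2 (95% Wilson interval 92.3 to 96.0%), 98.8% in library 3 (97.1 to 99.5%) and 95.4% in library 4 (92.6 to 97.2%) of that group. In libraries 1 and 5 it was 58.8% and 59.0%. In WT with azacitidine the share was 83.4%, 81.0% and 71.6%, in WT with NaCl 41.6%, 48.4%, 74.8% and 48.1%, and in R882H with NaCl 43.6%, 49.4%, 70.6% and 39.5%. The share was thus higher with azacitidine in most libraries, but the NaCl libraries numbered 3 of both genotypes overlapped the azacitidine range. These intervals cover counting error only. In R882H against WT under azacitidine, Hbb-bt had a log2 difference of -1.27 (SE 0.59, adjusted p = 0.535), and in the difference between the azacitidine responses one of -2.28 (SE 0.84, adjusted p = 0.763).

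**Figure D3:**
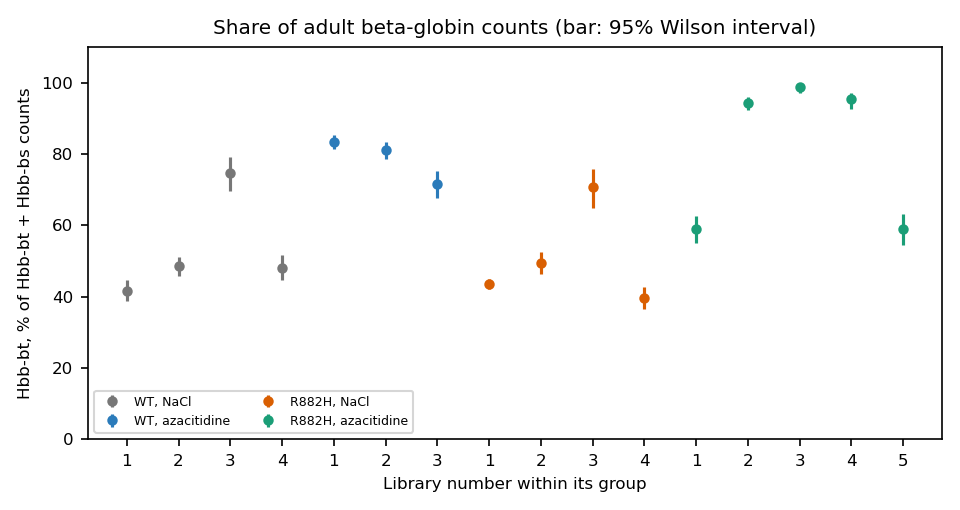
Share of Hbb-bt in the counts of Hbb-bt and Hbb-bs together (percent, with 95% Wilson intervals for counting error) in each library, coloured by group. R882H with azacitidine libraries 2, 3 and 4 stand at 94.4 to 98.8%, and the NaCl libraries lie between 39.5 and 74.8%.

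The carbonic anhydrases, which interconvert carbon dioxide and bicarbonate, held the only gene of the list, Car2, whose treatment groups did not overlap in either genotype. Car2 (ENSMUSG00000027562, chr3:14886273-14900770, plus strand) stood at 1725, 1508, 1637 and 1468 CPM in WT with NaCl and at 704, 974 and 1237 in WT with azacitidine. Car2 in R882H cells stood at 2145, 4483, 1505 and 1527 with NaCl and at 1226, 1363, 1210.2, 1084 and 1239 with azacitidine. In both genotypes every azacitidine library lay below every NaCl library. The log2 change was -0.98 (SE 0.27, adjusted p = 0.415) in R882H and -0.71 (SE 0.31, adjusted p = 0.825) in WT. Without libraries 1 and 2 of R882H with NaCl it was -0.31 in R882H, still below 0. Car1 (ENSMUSG00000027556, chr3:14766216-14808368, minus strand), a marker of committed erythroid progenitors, stood at 209, 449, 252 and 299.7 CPM in WT with NaCl and at 980.2, 4377, 122 and 90.5 in R882H with NaCl. Car1 under azacitidine stood at 201, 158 and 265 in WT and at 230.4, 176, 291, 204 and 352 in R882H. Its values in R882H with NaCl spanned the whole range of the 16 libraries, with both the highest and the lowest. In R882H against WT under NaCl, Car1 had a log2 difference of 2.20 (SE 0.83, adjusted p = 0.797), which was -1.50 without libraries 1 and 2 of R882H with NaCl.

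The 9 membrane and surface genes peaked in R882H with NaCl library 2, except Slc4a1, which peaked in library 1. Epb42 (ENSMUSG00000023216, chr2:121017891-121037072, minus strand), protein 4.2 of the membrane skeleton, stood at 1.43, 2.75, 1.42 and 0.890 CPM in WT with NaCl and at 9.06, 15.4, 2.03 and 1.29 in R882H with NaCl. Epb42 under azacitidine stood at 1.65, 0.757 and 0.641 in WT and at 1.17, 0.988, 0.870, 0.984 and 0.617 in R882H. All 5 R882H azacitidine values lay below all 4 of R882H with NaCl, and the log2 change was -2.90 (SE 0.60, adjusted p = 0.343), the lowest p of the 33. Without libraries 1 and 2 of R882H with NaCl it was -0.84. Tspan33 (ENSMUSG00000001763, chr6:29694222-29718559, plus strand), a tetraspanin of erythroid progenitors, stood at 27.8, 49.6, 19.3 and 21.4 CPM in WT with NaCl and at 77.5, 274, 16.4 and 18.5 in R882H with NaCl. Tspan33 under azacitidine stood at 20.9, 20.9 and 16.5 in WT and at 16.2, 17.6, 13.5, 17.4 and 19.2 in R882H. Its log2 change in R882H was -2.53 (SE 0.61, adjusted p = 0.388), and it was -0.06 without libraries 1 and 2 of R882H with NaCl, whose libraries 3 and 4 lay within the azacitidine range.

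Rhd (ENSMUSG00000028825, chr4:134864536-134896172, plus strand), the Rh blood group gene, stood at 29.8, 60.4, 11.5 and 12.5 CPM in WT with NaCl and at 126, 458, 6.29 and 4.10 in R882H with NaCl. Rhd under azacitidine stood at 20.9, 13.3 and 13.2 in WT and at 12.04, 11.5, 14.9, 11.1 and 22.3 in R882H. Its log2 change in R882H was -3.37 (SE 0.96, adjusted p = 0.415) with all libraries and 1.46 without libraries 1 and 2 of R882H with NaCl, a change of sign. Slc4a1 (ENSMUSG00000006574, chr11:102348824-102366203, minus strand), the anion exchanger band 3, had 424, 81, 4 and 28 counts in R882H with NaCl, or 12.5, 2.08, 0.0957 and 0.583 CPM. With azacitidine in R882H it had no counts in libraries 1 to 4, where 3 counts would be 0.0549 to 0.0706 CPM, and 14 counts in library 5. WT cells had 1.22, 2.05, 0 and 0.0234 CPM with NaCl and 1.99, 0.866 and 0.205 with azacitidine. Slc4a1 therefore overlapped between the NaCl and azacitidine groups of R882H only through library 5, and the fitted log2 change of -5.82 (SE 1.66, adjusted p = 0.415) depends on how zeros are handled. Mfsd2b (ENSMUSG00000037336, chr12:4862440-4874359, minus strand), which exports sphingosine 1-phosphate from red cells and platelets, stood at 51.9, 82.4, 49.7 and 35.96 CPM in WT with NaCl and at 63.4, 287, 36.9 and 25.9 in R882H with NaCl. Mfsd2b under azacitidine stood at 152, 144 and 72.5 in WT and at 106, 63.9, 84.4, 72.5 and 105 in R882H. Apart from library 2 of R882H with NaCl, the highest values were those of WT with azacitidine libraries 1 and 2. The 10 megakaryocyte markers also summed highest in these, to 756 and 1023 CPM against 295 to 606 in the other 14 libraries, and their part in the level of Mfsd2b was not tested. The remaining members ranged from 0.518 to 48.3 CPM for Sptb, 1.27 to 38.2 for ankyrin Ank1, 8.84 to 509 for Ermap and 25.9 to 898 for the water channel Aqp1. Sptb had a log2 change of -3.87 (SE 1.12, adjusted p = 0.415) in R882H cells with azacitidine, which turned to 0.64 without libraries 1 and 2 of R882H with NaCl.

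Haem synthesis genes peaked less sharply. Cpox (ENSMUSG00000022742, chr16:58670292-58717636, plus strand), coproporphyrinogen oxidase, stood at 79.9, 103, 49.5 and 57.3 CPM in WT with NaCl and at 220.2, 525, 47.97 and 50.4 in R882H with NaCl. Cpox under azacitidine stood at 78.6, 59.7 and 60.3 in WT and at 58.4, 64.4, 57.6, 71.5 and 65.04 in R882H. Libraries 3 and 4 of R882H with NaCl lay below all 5 azacitidine values and libraries 1 and 2 above them, so that the log2 change of -1.73 (SE 0.51, adjusted p = 0.415) turned to 0.36 without the latter. Alas2 (ENSMUSG00000025270, chrX:150547375-150570638, plus strand), the erythroid form of the rate-limiting enzyme, stood at 1.74, 1.65, 0.177 and 0.538 CPM in WT with NaCl and at 2.42, 2.26, 0.191 and 1.41 in R882H with NaCl. Alas2 under azacitidine was 0.719, 0.676 and 0.821 in WT and 0.618, 0.439, 0.306, 0.300 and 0.814 in R882H. It was among the lowest members in every group, and it peaked with the haemoglobins in library 1. Alas1, the form used in all tissues, ranged from 73.7 to 194 CPM and peaked in WT with azacitidine library 2. The later enzymes Alad (112 to 447 CPM), Uros (22.4 to 61.1), Urod (90.7 to 273) and Fech (48.8 to 279) were highest in R882H with NaCl library 2. Outside it their highest values were 239.4 CPM for Alad, 38.4 for Uros, 145 for Urod and 95.2 for Fech. Ppox (105 to 153 CPM) was nearly flat across all libraries.

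The carriers and biliverdin reductase joined the peak. Blvrb (ENSMUSG00000040466, chr7:27447978-27466144, plus strand), biliverdin reductase B, stood at 67.6, 117, 39.2 and 45.9 CPM in WT with NaCl and at 222, 591, 34.3 and 35.04 in R882H with NaCl. Blvrb under azacitidine stood at 69.2, 62.5 and 54.7 in WT and at 53.1, 51.3, 55.6, 47.8 and 58.00 in R882H. As for Cpox, the azacitidine libraries lay between the high and the low pair of R882H with NaCl, and the log2 change of -2.05 (SE 0.62, adjusted p = 0.422) became 0.61 without libraries 1 and 2. Abcb10 (ENSMUSG00000031974, chr8:123952459-123983122, minus strand), a mitochondrial transporter needed for haem synthesis, stood at 35.99, 37.8, 43.8 and 40.00 CPM in WT with NaCl and at 44.1, 129, 45.2 and 43.5 in R882H with NaCl. Abcb10 under azacitidine stood at 36.2, 29.9 and 30.9 in WT and at 48.7, 33.7, 42.98, 44.7 and 49.3 in R882H. Library 2 of R882H with NaCl alone stood out, and its log2 difference in R882H against WT under NaCl was 0.73 (SE 0.29, adjusted p = 0.807). Slc25a38, the mitochondrial glycine carrier, ranged from 29.01 to 131 CPM and was highest in the same library.

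**Figure D4:**
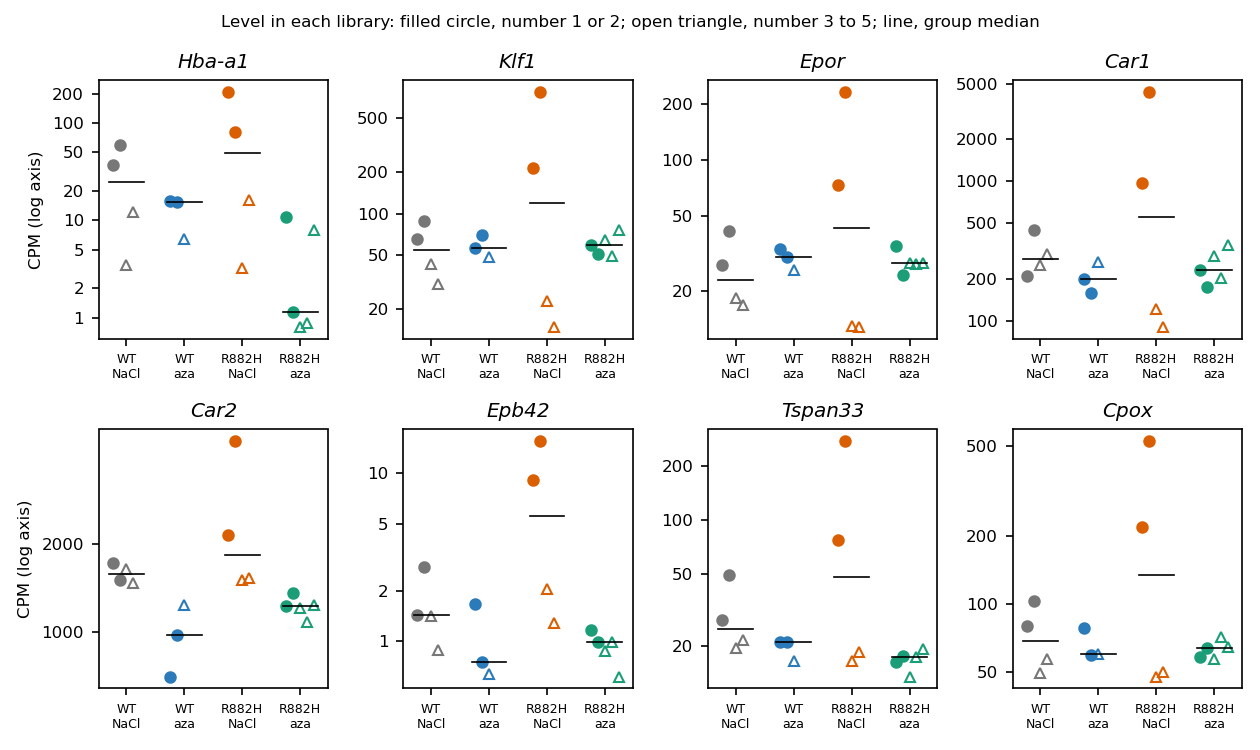
CPM (log axis) of 8 genes in each library, with a line at each group's median; filled circles are libraries numbered 1 and 2, open triangles those numbered 3 to 5. In R882H with NaCl the filled circles lie above every azacitidine library, while the open triangles lie below the R882H azacitidine libraries for Klf1, Epor, Car1 and Cpox and above them for Car2 and Epb42.

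The R882H comparison was repeated within each set of library numbers. These sets match a separation already seen within R882H with NaCl in these same libraries. Adjusted p-values within a set are therefore no independent test, and the calls below describe that set only. Among libraries numbered 1 and 2, 25 of the 33 genes stood lower with azacitidine without overlap, against 21.7% of all genes, and 1 higher, against 22.9%; 28 were lower at an unadjusted p under 0.05, against 8.43%. The fit called 5 (0.288% of all genes), all lower: Rhd at -4.63 (SE 0.64, adjusted p = 0.0352), Cpox at -2.60 (SE 0.41, adjusted p = 0.0448), Blvrb at -2.96 (SE 0.46, adjusted p = 0.0448), Tspan33 at -3.37 (SE 0.55, adjusted p = 0.0492), and Slc4a1, which had no counts in either azacitidine library. Among libraries numbered 3 and above, 18 of the 33 stood higher with azacitidine without overlap, against 18% of all genes, and 2 lower, against 17.3%. There 15 were higher at an unadjusted p under 0.05, against 7.46%, and 6 were called (1.24% of all genes), all higher. Epor had a log2 change of 1.11 (SE 0.11, adjusted p = 0.0155), Gata1 1.37 (SE 0.17, adjusted p = 0.0222), Klf1 1.72 (SE 0.27, adjusted p = 0.0372), Mfsd2b 1.46 (SE 0.23, adjusted p = 0.0373), Gfi1b 0.52 (SE 0.09, adjusted p = 0.0411) and Car1 1.39 (SE 0.24, adjusted p = 0.0444). Over the 26 other alternative fits, the lowest adjusted p of any of these 6 was 0.0506, for Klf1, so none was called elsewhere. The log2 change of Klf1 in those fits ranged from -3.16 to 1.66, so its direction was not constant. With all libraries their log2 changes were -1.53, -0.83, -2.10, -0.26, -0.52 and -2.47 in the same order. The fit of numbers 3 and above has 2 NaCl and 3 azacitidine libraries in R882H. These 6 genes thus had opposite signs in the 2 sets, whereas Hba-a1, Hba-a2, Hbb-bs, Alas2, Slc4a1, Epb42 and Car2 lay below 0 in both.

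**Figure D5:**
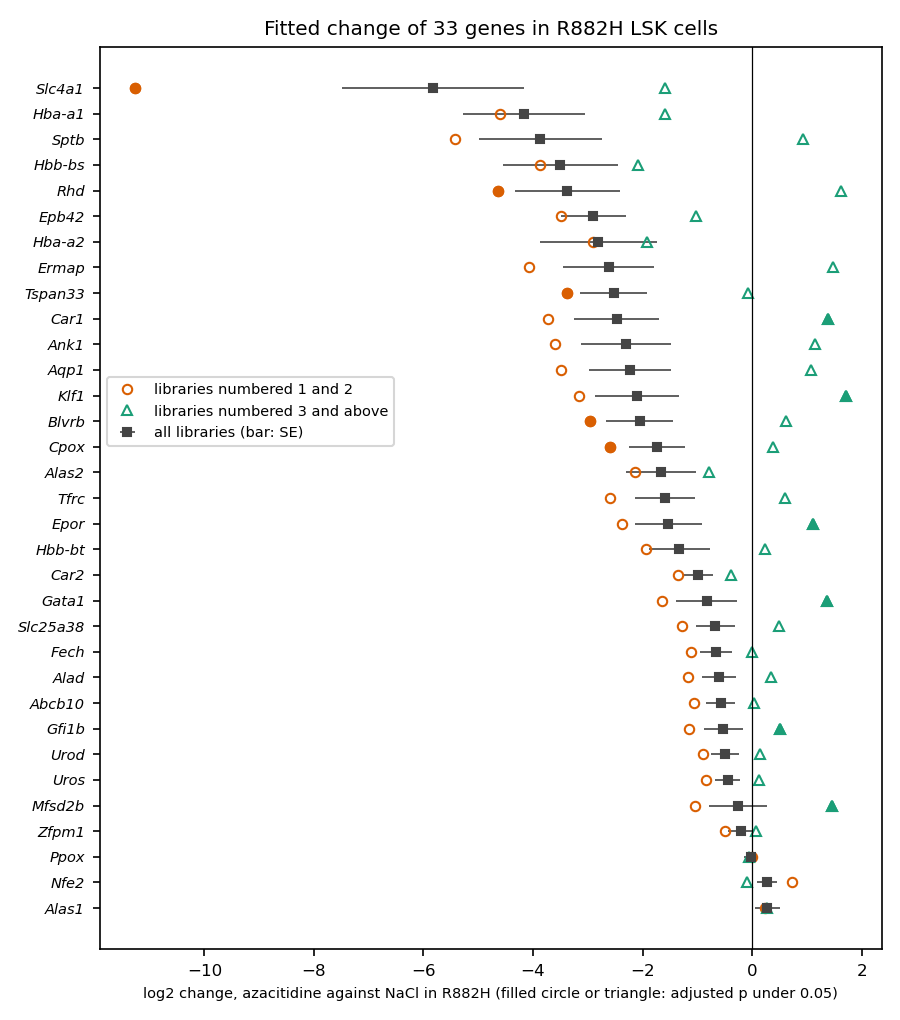
Fitted log2 change of the 33 genes, azacitidine against NaCl in R882H, with all libraries (squares, bar SE), with libraries numbered 1 and 2 (circles) and with those numbered 3 and above (triangles); filled circles or triangles passed an adjusted p of 0.05. Klf1 lies at -3.16 with numbers 1 and 2 and at 1.72 with numbers 3 and above, while Hba-a1, Epb42 and Car2 lie below 0 in all 3 fits; the Slc4a1 circle is fitted against zeros and is no bound.

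In WT cells, 19 of the 33 genes had a log2 change with azacitidine below 0 and 14 above, with a median of -0.09 against 0.01 over all genes, of which 48.1% lay below 0 and 51.8% above. This split shifted with the libraries used. It was 24 below and 9 above (median -0.20) with libraries numbered 1 and 2. Without library 2 of WT with NaCl it was 16 and 17 (median 0.088). None of the 33 was called in edgeR (0% of all genes), in DESeq2 or in limma-voom. Car2 alone had an unadjusted p under 0.05, and it was lower (2.03% of all genes were lower at that threshold and 3.99% higher). It was also the only gene of the list whose azacitidine values all lay below the NaCl values, against 2.79% of all genes, and none had all values above, against 2.94%. The log2 changes of the other 32 genes had standard errors of up to 1.54, and a change that did not pass is not shown to be absent.

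The difference between the azacitidine responses, R882H minus WT, was below 0 for 31 of the 33 genes, with a median of -1.60 against -0.05 over all genes, of which 54% lay below 0 and 46% above. None was called in edgeR (0% of all genes), DESeq2 or limma-voom, and 9 were below 0 at an unadjusted p under 0.05, against 4.92% of all genes, and 0 above, against 1.16%. Apart from Tfrc and Hbb-bt these were Slc4a1 at -6.13 (SE 2.23), Epb42 at -2.23 (SE 0.88), Sptb at -3.50 (SE 1.59), Aqp1 at -2.39 (SE 1.11), Ank1 at -2.60 (SE 1.22), Tspan33 at -1.92 (SE 0.90) and Ermap at -2.61 (SE 1.23), all with an adjusted p of 0.763. Without libraries 1 and 2 of R882H with NaCl, 7 of the 33 lay below 0 and 26 above, with a median of 0.39. These contrasts and the next share the 4 libraries of R882H with NaCl, so their values are not independent of each other.

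R882H was compared with WT under NaCl to look at the mutation without the drug. Of the 33 genes, 32 had a log2 difference above 0, with a median of 1.24 against 0.03 over all genes, of which 54.2% lay above 0 and 45.8% below. The exception was Nfe2 at -0.16. None was called in edgeR (0.00545% of all genes were), DESeq2 or limma-voom, and 15 were higher at an unadjusted p under 0.05, against 3.64% of all genes, and 0 lower, against 1.96%. The median was 0.56 with limma-voom. Same-numbered libraries of these groups deviated together, but so did differently numbered ones on the same side of the split between numbers 1 and 2 and the rest. With the replicate block the median was 0.66, 5 of the 33 had an unadjusted p under 0.05 and 0 were called. The groups overlapped for every gene of the list, whereas 0.878% of all genes were higher and 1.09% lower without overlap. Beyond those given above, the lowest p belonged to Epb42 at 2.10 (SE 0.63, adjusted p = 0.797), Ermap at 2.63 (SE 0.91, adjusted p = 0.797), Aqp1 at 2.35 (SE 0.82, adjusted p = 0.797), Cpox at 1.54 (SE 0.55, adjusted p = 0.797), Tspan33 at 1.71 (SE 0.64, adjusted p = 0.797) and Blvrb at 1.71 (SE 0.66, adjusted p = 0.797). Without libraries 1 and 2 of R882H with NaCl, 26 of the 33 lay below 0 and 7 above, with a median of -0.55, and 11 were lower at an unadjusted p under 0.05, against 6.71% of all genes. In libraries numbered 3 and above alone, with 2 in each group, 20 lay below 0 and 13 above, and the median was -0.12. The sign of the genotype difference thus depended on which NaCl libraries entered. Leaving the pair out of R882H alone keeps libraries 1 and 2 of WT with NaCl. In these, 20 of the 33 genes stood higher than in the rest of that group. Library number and genotype are therefore mixed in the comparison without the pair.

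Under azacitidine, R882H minus WT, 21 of the 33 genes lay below 0 and 12 above, with a median log2 difference of -0.09 against -0.02 over all genes, of which 52.1% lay below 0 and 47.9% above. The direction was not stable: 12 lay below 0 and 21 above (median 0.10) with libraries numbered 3 and above, 9 and 24 (median 0.14) with a term for numbers 1 and 2, and 14 and 19 (median 0.075) with the replicate block. None was called in edgeR (0.00545% of all genes were), DESeq2 or limma-voom. Hbb-bt and Slc4a1 were lower at an unadjusted p under 0.05, against 6.69% of all genes, and 0 were higher, against 2.65%. The difference of Slc4a1 was -3.93 (SE 1.66, adjusted p = 0.533). The values of the genotypes did not overlap for 1 gene, Fech, which was higher in R882H at a log2 difference of 0.46 (SE 0.33), against 5.05% of all genes. None was lower without overlap, against 5.66%.

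Other genes of the pathway, listed apart from the 33, were read in the same fits. They include the further erythroid markers summed above: Rhag, Trim10 and Kel among the red cell genes, and Hemgn among the regulators. That sum and the counts here are therefore not separate observations. In azacitidine against NaCl in R882H, 8 of 16 tested red cell genes were lower at an unadjusted p under 0.05 and 0 higher, against 4.45% and 2.24% of all genes, with a median log2 change of -0.55. When the pair of NaCl libraries was left out, 0 were lower and 5 higher, against 3.31% and 2.1% of all genes, with a median of 0.19. The lowest p belonged to Cd36, a fatty acid transporter of erythroid progenitors, at -2.34 (SE 0.62, adjusted p = 0.413), Trim10 at -4.74 (SE 1.39, adjusted p = 0.415) and Cldn13 at -3.88 (SE 1.18, adjusted p = 0.423). Without the pair these were -0.62, 0.25 and 2.38, so that the latter 2 changed sign. Of 22 further haem and iron genes, 6 were lower and 0 higher, with a median of -0.32, and 0 and 0 without the pair. They were led by the iron exporter Slc40a1 at -2.15 (SE 0.55, adjusted p = 0.413), Abcb6 at -1.14 (SE 0.36, adjusted p = 0.480) and the ferrireductase Steap3 at -1.35 (SE 0.49, adjusted p = 0.599), which were -0.69, -0.42 and 0.40 without the pair. Of 19 further regulators, 1 was lower and 2 were higher, with a median of 0.02: Nfia at -1.47 (SE 0.39, adjusted p = 0.413), Gata2 at 0.47 (SE 0.18, adjusted p = 0.644) and Spi1 at 0.45 (SE 0.20, adjusted p = 0.705), or -0.29, 0.17 and 0.20 without the pair. None of these genes was called in edgeR in any of the 5 contrasts.

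In WT cells the counts at an unadjusted p under 0.05 were 1 lower and 0 higher of the red cell genes, 0 and 0 of the haem and iron genes, and 1 and 1 of the regulators, where 2.03% of all genes were lower and 3.99% higher. In R882H against WT under NaCl they were 1 lower and 5 higher of the red cell genes, 0 and 3 of the haem and iron genes, and 2 and 1 of the regulators, against 1.96% and 3.64% of all genes. Without the pair they were 4 lower and 0 higher, 2 and 1, and 0 and 1, against 6.71% and 3.95%. In R882H against WT under azacitidine, 20 of the 30 cytosolic ribosomal protein genes and 9 of 13 mitochondrially encoded genes were lower at that threshold and 0 of either higher, against 6.69% and 2.65% of all genes. In azacitidine against NaCl in R882H, 12 of 13 mitochondrially encoded genes and 7 of 9 T cell markers were lower and 0 higher. Of all genes, 4.45% were lower and 2.24% higher. Of the 30 ribosomal protein genes 0 passed, though all lay below 0. Without the pair, 0 of 12 mitochondrially encoded genes passed. In the difference between the responses, 12 of 13 mitochondrially encoded and 5 of 30 ribosomal protein genes were lower, against 4.92%. The part of these lists in the values of the 33 genes was not tested.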

How the data were processed

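Raw counts for each gene and repeat family, as deposited, were made by the authors on GRCm38 (mm10) with HISAT2 2.0.5 and featureCounts 1.6.2, per the submitters' processing notes, which also name edgeR 3.26.6. Strand and multi-mapping settings are not given in the sources used here. FPKM, also deposited, divide these counts by the length in bases (another unit in the same files) and by a library size, and served only to compare levels between genes. RNA with a RIN under 8 was excluded and cDNA came from an ultra-low-input amplification kit, per the labels' protocols; reads carry no molecular identifiers.

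Repeat rows (1201) were left out of library sizes. Genes were filtered with filterByExpr, which kept 18341, scaled by TMM and fitted with the quasi-likelihood test of edgeR 4.0.16 (R 4.3.3) over all 16 libraries, 1 coefficient per group. The common dispersion was 0.166. Benjamini-Hochberg adjustment covered all genes tested, with a call at an adjusted p under 0.05, and CPM are TMM-scaled gene counts. The SE is the log2 change over the square root of F. Alternatives were DESeq2 1.42.0, limma-voom (limma 3.58.1), other scalings, no filter, the replicate block, subsets of libraries and each library left out. The model was tested on simulated data. Deviations of same-numbered libraries from their group means correlated above 0.1 in all 4 pairs of R882H and WT under NaCl (0.101 to 0.342). These were treated as possibly paired from the data alone, and not in the other comparisons. Differently numbered libraries of these groups also correlated within numbers 1 and 2 (0.258 and 0.270) and within 3 and 4 (0.296 and 0.313). Across these sets the correlations were below 0, so pairing by number is not shown. No 2 libraries of a group were copies (chi-square per gene of at least 42.2 in 25 pairs).

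The 33 genes, the lists and the tests were chosen with earlier results of these data known; 2 genes of the red cell and erythroid marker lists are not reported here and were left out of those lists' sums and counts. Changes were named for up to 10 genes with an unadjusted p under 0.05 per contrast, and values per library for the 2 genes of each role with the lowest p; the genes called with library numbers 3 and above, and others said to be so, were added after their values were seen. Coordinates and exons are from GENCODE M21.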

Additional observations from a re-analysis of the deposited data

Results flagged for a closer look

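In groups of 4 or 5 libraries, 12 single values of the 33 genes stood far from the rest of their group. They were judged by the gap to the nearest value over the range, in untransformed CPM. Of 99 groups tested, chance alone would give about 4.95 if values were normally spread. Skewed CPM can give more, so the excess over that number is uncertain. Of the 12, 9 lie in the pair of R882H with NaCl libraries already described. In library 1 they are Hbb-bt at 58.2 CPM, Hbb-bs at 75.4 and Slc4a1 at 12.5, where the other 3 libraries of the group did not exceed 12.1, 12.9 and 2.08. In library 2 they are Zfpm1 at 306 CPM, Gfi1b at 381, Fech at 279, Abcb10 at 129, Aqp1 at 898 and Mfsd2b at 287, where the others did not exceed 167, 112, 88.4, 45.2, 172 and 63.4.

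The other 3 lie in R882H with azacitidine. Slc4a1 stood at 0.346 CPM in library 5 and had no counts in the other 4 libraries. Sptb stood at 2.76 CPM in the same library, against 0.518 to 0.769 in the others, and Ppox at 153 in library 3, against 121 to 128.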

How the results depend on the processing

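Of the 33 genes, 0 were called in all 5 contrasts with another scaling, no filter, limma-voom, only the groups compared, the replicate block, a term for library numbers 1 and 2, or any 1 library left out. In azacitidine against NaCl in R882H, DESeq2 called 4 of them, libraries numbered 1 and 2 alone 5, and those numbered 3 and above 6. Genes called in that contrast, 1 with all libraries, numbered 97 with DESeq2, 53 and 233 with those sets of libraries, 2 with the term for numbers 1 and 2, 0 with no filter, with only the groups compared or without libraries 1 and 2 of R882H with NaCl, and 0 to 1 with 1 library left out. In WT the count of 0 became 53 with DESeq2, 1 with libraries numbered 3 and above, and 0 to 7 with 1 library left out, the 7 without WT with azacitidine library 3. For the difference between the responses the count of 0 became 12 with DESeq2, 4 with numbers 1 and 2 and 2 with numbers 3 and above. For R882H against WT under NaCl the count of 1 became 28 with DESeq2, 2 with numbers 3 and above or the term for the numbers, 0 with no filter, only the groups compared or without the pair of libraries, and 0 to 1 with 1 library left out. Under azacitidine the count of 1 became 21 with DESeq2, 9 with numbers 1 and 2, 2 with numbers 3 and above, 0 with no filter, limma-voom, only the groups compared or the term for the numbers, and 0 to 1 with 1 library left out.

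Same-numbered libraries correlated above 0.1 in 4 of 4 pairs for R882H against WT under NaCl, where some differently numbered libraries did so too. The count was 1 of 4 for azacitidine against NaCl in R882H, 1 of 3 in WT and 0 of 3 for R882H against WT under azacitidine. In these last 3 comparisons the libraries share only a number, and in the first, pairing by number is not shown. With the replicate block the genes called were 0 in azacitidine against NaCl in R882H and 0 in R882H against WT under azacitidine, and Mfsd2b in the former turned to 0.25; the median of the 33 genes there was -1.14. In R882H against WT under NaCl, 1 gene and 0 of the 33 were called with the block, as without it.

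Of the 38 log2 values followed, 24 changed sign when libraries 1 and 2 of R882H with NaCl were left out, a choice made after seeing the data, and 24 with libraries numbered 3 and above. In R882H with azacitidine the values without the pair and with numbers 3 and above were, in this order, 1.46 and 1.62 for Rhd, 0.64 and 0.92 for Sptb, 0.36 and 0.38 for Cpox, 0.61 and 0.62 for Blvrb, 1.15 and 1.11 for Epor, 1.39 and 1.37 for Gata1, 1.66 and 1.72 for Klf1, 1.45 and 1.46 for Mfsd2b, 0.51 and 0.52 for Gfi1b, and 1.23 and 1.39 for Car1. For the difference between the responses they were 0.16 and 0.067 for Tfrc, 1.00 and 0.58 for Sptb, 0.74 and 1.49 for Aqp1, 0.65 and 1.28 for Ank1, 0.55 and 0.23 for Tspan33, and 1.23 and 1.52 for Ermap. For R882H against WT under NaCl they were -1.21 and -0.99 for Ermap, -0.78 and -0.64 for Aqp1, -0.39 and -0.13 for Tfrc, -0.55 and -0.11 for Cpox, -1.50 and -1.37 for Car1, -0.75 and -0.22 for Tspan33, -1.58 and -0.95 for Klf1, and -0.95 and -0.29 for Blvrb. Other sign changes, all in R882H with azacitidine, were Gata1 at 0.038 and Mfsd2b at 0.40 with limma-voom, and Mfsd2b at 0.21 with the term for the numbers. With 1 library left out, Gata1 ranged from -1.17 to 0.51, Gfi1b from -0.76 to 0.33 and Mfsd2b from -0.58 to 1.04, the highest without library 2 of R882H with NaCl in each case. The cause of these changes was not tested. The other scalings, DESeq2, the absence of a filter, and each further library left out changed the sign of none of the 38. The number of libraries per group, and counts near 0 for Slc4a1, Alas2 and Sptb, limit what could be detected.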
